A study of Homo sapiens with 8 samples.

Results

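The 10 genes described here are ANGPTL4, which was low in both knockdowns, and 9 others: VEGFA, ADM, NDRG1, BNIP3, DDIT4, P4HA1, EGLN3, HIF1A and EPAS1. Low oxygen is known to induce these others, except HIF1A and EPAS1, which encode the oxygen-regulated HIF alpha subunits. The 10 genes were taken by symbol from the 12939 genes of the 8 libraries, and all 10 were present in each. ANGPTL4 was chosen by its fall in both knockdowns in these values, so its level against scramble is a description and carries no test. The question put to the other 9 was whether they followed it. The libraries were made from breast cancer stem cells (CSCs) of MDA-MB-231, a mesenchymal, triple-negative breast cancer cell line. All cells carried GFP under the Oct4a regulatory region and an RFP vector with an shRNA, and the cells brightest for both colors were sorted and left overnight in culture before RNA was taken. There were 3 libraries with scramble shRNA, 3 with shRNA to CDH2 (N-cadherin) and 2 with shRNA to Cx43 (connexin 43, a gap junction protein). The CDH2 shRNA was a single clone, picked from several by how well it lowered the protein, so what is specific to the clone cannot be told apart from the knockdown.

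Cells sense oxygen with prolyl hydroxylases. While oxygen is plentiful these enzymes mark the HIF alpha subunits, HIF-1 alpha (HIF1A) and HIF-2 alpha (EPAS1), for destruction through VHL. When oxygen is short the subunits last, pair with ARNT and bind short DNA motifs called hypoxia response elements near genes for blood vessel growth, glycolysis, matrix and survival. HIF activity is set mainly at the protein, which RNA-Seq does not measure, so the targets are read here in place of it. Several of the targets also answer to other signals: ANGPTL4 to fatty acids through PPAR factors, to TGF-beta and to glucocorticoids, and DDIT4 to glucocorticoids and to ATF4, the factor of the integrated stress response.

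The starts of 5 of these genes are shown since the results turn on them: the 3 whose knockdown libraries all lay below scramble (ANGPTL4, ADM, EGLN3) and the pair with the most copies of the hypoxia motif (BNIP3, DDIT4). Each line gives 300 bases from RefSeq on GRCh38.p14, 250 before and 50 from the gene's start, 5′ to 3′ on the gene's own strand. The starts are those of RefSeq, and the gene bounds given further on are those of GENCODE, whose models of ANGPTL4 and EGLN3 begin upstream of the windows. Capitals mark the core of the hypoxia response element, ACGTG or GCGTG, on either strand (CACGT and CACGC in the other reading). The windows are chr19:8363905-8364204 (+) for ANGPTL4, chr11:10304823-10305122 (+) for ADM, chr14:33951025-33951324 (-) for EGLN3, chr10:131981874-131982173 (-) for BNIP3 and chr10:72273674-72273973 (+) for DDIT4.
ANGPTL4: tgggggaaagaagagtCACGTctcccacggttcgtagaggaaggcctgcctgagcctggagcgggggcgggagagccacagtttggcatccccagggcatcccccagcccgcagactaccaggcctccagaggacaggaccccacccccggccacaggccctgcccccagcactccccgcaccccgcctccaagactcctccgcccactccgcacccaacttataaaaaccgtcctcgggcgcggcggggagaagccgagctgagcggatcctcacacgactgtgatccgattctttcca
ADM: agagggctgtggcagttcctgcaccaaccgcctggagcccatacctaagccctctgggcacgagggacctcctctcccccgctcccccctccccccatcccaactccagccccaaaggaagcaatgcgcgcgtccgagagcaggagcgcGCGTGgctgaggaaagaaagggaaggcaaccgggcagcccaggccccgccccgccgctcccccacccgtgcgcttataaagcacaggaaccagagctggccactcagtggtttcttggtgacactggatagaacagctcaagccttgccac
EGLN3: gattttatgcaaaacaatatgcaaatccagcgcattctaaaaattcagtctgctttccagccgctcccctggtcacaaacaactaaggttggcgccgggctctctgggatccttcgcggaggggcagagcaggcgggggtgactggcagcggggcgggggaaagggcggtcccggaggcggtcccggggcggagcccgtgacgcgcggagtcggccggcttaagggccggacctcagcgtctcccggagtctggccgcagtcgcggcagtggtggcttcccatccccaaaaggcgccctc
BNIP3: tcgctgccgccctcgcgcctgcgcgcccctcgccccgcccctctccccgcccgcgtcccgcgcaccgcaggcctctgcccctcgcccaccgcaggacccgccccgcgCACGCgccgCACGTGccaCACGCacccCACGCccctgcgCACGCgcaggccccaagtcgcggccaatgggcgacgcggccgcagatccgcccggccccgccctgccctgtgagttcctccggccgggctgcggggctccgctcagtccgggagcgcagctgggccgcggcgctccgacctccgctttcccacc
DDIT4: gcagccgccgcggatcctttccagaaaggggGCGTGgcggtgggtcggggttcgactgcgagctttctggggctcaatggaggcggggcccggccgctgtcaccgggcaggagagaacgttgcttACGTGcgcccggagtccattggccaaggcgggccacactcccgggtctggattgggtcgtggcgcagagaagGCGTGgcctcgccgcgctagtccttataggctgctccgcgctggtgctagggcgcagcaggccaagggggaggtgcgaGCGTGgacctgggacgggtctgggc

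Among the 8 members with an entry in the table, 7 held at least 1 core, against 64.4% of the 9276 promoters of genes in the files. The ACGTG form was in 4 of the 8, against 27.3% of those promoters. ANGPTL4 held 1 core, 234 bases before its start. ADM held 1 core, 101 bases before its start. The window of EGLN3 held none, which says only that these letters are not in these 300 bases. BNIP3 held 6, counting both strands of an overlapping pair 134 and 133 bases before its start, and DDIT4 held 4. The number of cores did not separate the genes that were low in both knockdowns from those that were not: ADM with 1 and EGLN3 with 0 lay below scramble in every knockdown library, and BNIP3 with 6 did not. A core is a match of letters and was not tested as a binding site.

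The values are log2(CPM + 1), where CPM counts reads relative to the library's total, after the authors removed the effect of the sequencing runs. No counts are given, so library depth cannot be stated and the number of libraries limits the precision. Deviations from group means cancelled to within 1e-04 among libraries that share a replicate number, so that number was fitted as a block in limma with all 8 libraries. Fits without the block, given below, count 5 residual degrees of freedom where the block leaves 3. Since the effect of that number was already taken out of the values, p-values without the block are too small. They are given for comparison only. Replicate number 3 exists only for scramble and CDH2 shRNA, so there the deviations of both libraries are mirror images. The labels do not say whether replicates were separate cultures, so p-values measure the spread between these libraries. The line's markers VIM (between 9.62 and 9.81), CD44 and EGFR were high, EPCAM was low, between 2.21 and 2.75, ERBB2 lay between 5.16 and 5.52, and ESR1, PGR, CDH1, GATA3 and FOXA1 were not among the genes. POU5F1, the gene of Oct4a, lay between 3.57 and 3.85, and TWIST1, SOX2 and NANOG were not among the genes. Of 12 markers of other cell types, 4 were measured, and PTPRC, CD3E, CD14, CDH5, ALB, DCN and LUM were not among the genes. The summed level of the 4 ran from 74.7 to 88.1 CPM with scramble. It ran from 62.1 to 72.9 with CDH2 shRNA and from 48.3 to 56.3 with Cx43 shRNA. The group lowest in this sum was also the lowest in ANGPTL4. Within each group the order was reversed, and the library with the highest sum had the lowest ANGPTL4. The part of these markers in the results was not tested. With CDH2 shRNA 2 of the 4 had a negative log2 fold change, PDGFRB at -0.63 (limma, adjusted p = 0.0442) and PECAM1 at -0.50 (limma, adjusted p = 0.0633), and COL1A1 and CD68 were both at 0.16. With Cx43 shRNA all 4 were negative, from -0.92 to -0.27, and none passed by limma. EPCAM fell by 0.37 with CDH2 shRNA (limma, adjusted p = 0.0349). In bulk libraries fewer cells of a kind and less RNA per cell cannot be told apart. CDH2 and GJA1 (the Cx43 gene) were not analysed here, and neither knockdown was checked on its target.

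ANGPTL4 (chr19:8363289-8374370 on hg38, plus strand) encodes a secreted protein that inhibits lipoprotein lipase and acts on blood vessels and cell adhesion. Its log2(CPM + 1) was 3.03, 3.11 and 2.98 with scramble shRNA. It was 1.79, 1.96 and 1.97 with CDH2 shRNA and 1.71 and 1.47 with Cx43 shRNA. The 5 knockdown libraries therefore all lay below the 3 scramble libraries, with a gap of about 1 unit and little spread within any group. In CPM the mean was 7.23 with scramble, 2.76 with CDH2 shRNA and 2.02 with Cx43 shRNA, so ANGPTL4 was a weakly expressed gene in all 3 groups. Low genes had been dropped, and every listed gene reached a log2(CPM + 1) of at least 2.001 in some library. The 5 knockdown values of ANGPTL4 all lay below that floor, so it was listed only through scramble. Its values with CDH2 and with Cx43 shRNA are therefore compared below the floor. The log2 difference from scramble was -1.13 with CDH2 shRNA and -1.45 with Cx43 shRNA. Against the scramble library of the same replicate number, it was -1.24, -1.14 and -1.02 for CDH2 and -1.32 and -1.64 for Cx43. These values are those by which the gene was chosen. Between the knockdowns, which is not what it was chosen on, ANGPTL4 was 0.32 higher with CDH2 than with Cx43 shRNA, and that difference was not past the threshold (limma, adjusted p = 0.242, 95% interval 0.01 to 0.63).

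**Figure D1:**
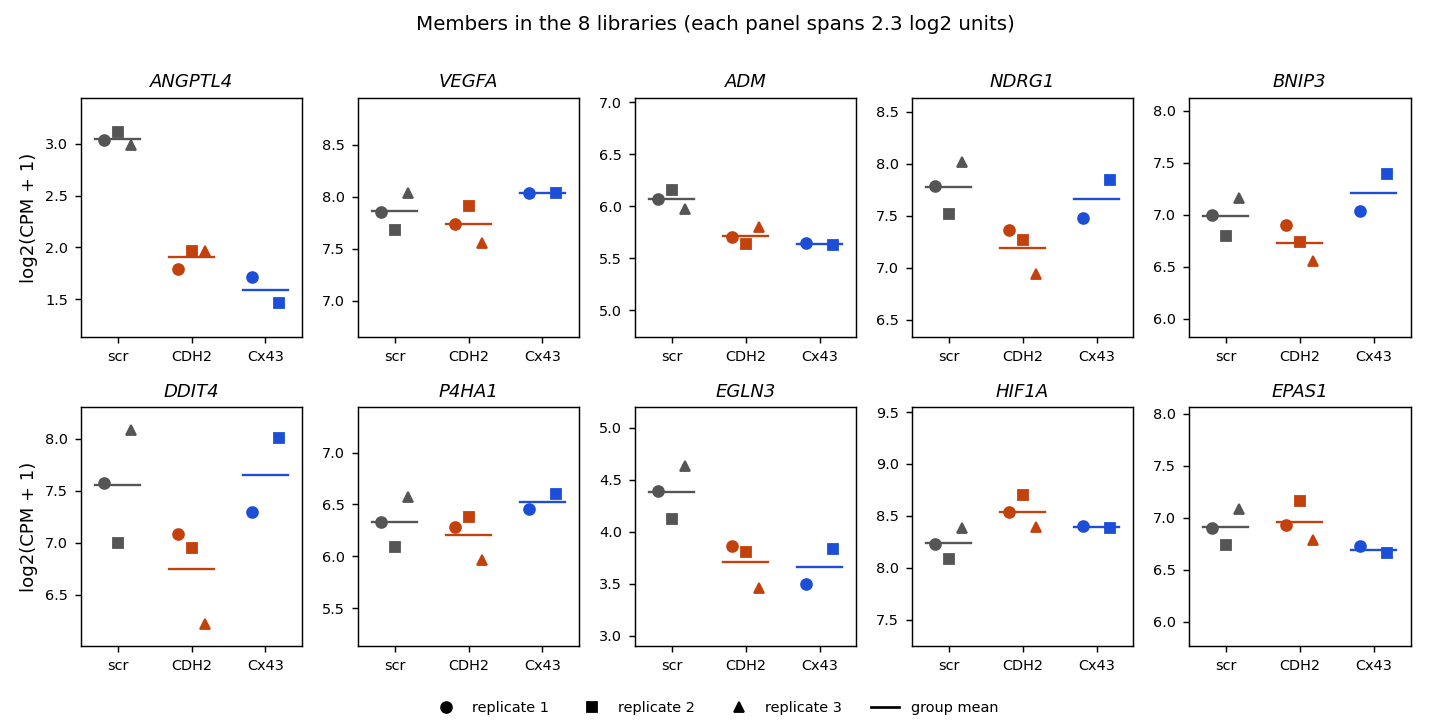
Each panel plots log2(CPM + 1) of 1 gene in the 8 libraries, by group on the x axis (scr is scramble), with a horizontal line at the group mean and the marker giving the replicate number; each panel has its own y axis of equal length. ANGPTL4 drops by over 1 unit in both knockdowns, ADM and EGLN3 lie below scramble in all 5 knockdown libraries, and DDIT4 spreads most within groups.

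The other 9 members did not follow ANGPTL4 as a group. None of them had an adjusted p under 0.05 in either knockdown, and ADM and EGLN3 were the ones below every scramble library in both. At that adjusted p alone, 6.98% of all genes were lower and 7.29% higher with CDH2 shRNA, and 0.788% and 0.417% with Cx43 shRNA. No call among 9 genes is near those shares and does not set the members apart from other genes. Over the 10 members, ANGPTL4 alone was past the threshold in each knockdown, which joins an adjusted p under 0.05 with the least fold change that the methods set (1.5 for Cx43 shRNA and somewhat more for CDH2 shRNA). Over all genes, 1.20% were past it and lower with CDH2 shRNA and 0.781% with Cx43 shRNA. Since ANGPTL4 was chosen on these contrasts, its count is not read against those shares. The median log2 fold change of the other 9 was -0.25 with CDH2 shRNA and 0.10 with Cx43 shRNA, beside 0.01 and 0.04 over all 12939 genes. With CDH2 shRNA 7 of the 9 had a negative value, and with Cx43 shRNA 4 of the 9, where 49.0% and 42.4% of all genes did. Both contrasts share the 3 scramble libraries. The count of members rested on single libraries. Without scramble 2, NDRG1, DDIT4 and EGLN3 were past the threshold too with CDH2 shRNA, which made 4 members, and EGLN3 with Cx43 shRNA, which made 2. EGLN3 also passed with Cx43 shRNA without CDH2 3 or scramble 3. ANGPTL4 itself was no longer past it in either knockdown without CDH2 1, CDH2 2, Cx43 1, Cx43 2 or scramble 1, which left 0 members.

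**Figure D2:**
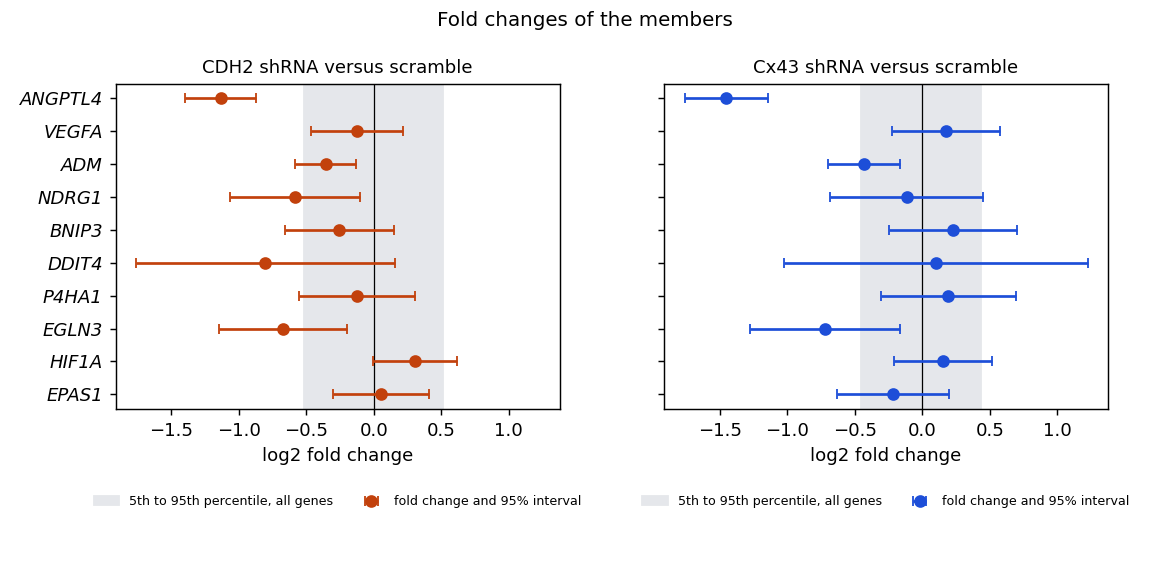
The x axis is the log2 fold change against scramble for CDH2 shRNA (left) and Cx43 shRNA (right), with bars for the 95% interval of the limma fit; the gray band runs from the 5th to the 95th percentile of all genes, -0.52 to 0.51 and -0.46 to 0.44. ANGPTL4, by which the list was chosen, lies far to the left of the band in both, EGLN3 lies to its left in both, and NDRG1 and DDIT4 lie to its left with CDH2 shRNA alone, with wide bars for DDIT4.

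ADM (chr11:10305073-10307397, plus strand) encodes adrenomedullin, a secreted peptide that widens vessels and protects endothelium. Its values were 6.07, 6.15 and 5.98 with scramble, 5.70, 5.63 and 5.80 with CDH2 shRNA and 5.65 and 5.62 with Cx43 shRNA. The knockdown libraries lay below every scramble library, and the groups did not overlap. The log2 fold change was -0.35 ± 0.09 (SE) with CDH2 shRNA (limma, adjusted p = 0.0554) and -0.43 ± 0.11 with Cx43 shRNA (limma, adjusted p = 0.111). Without the replicate block the same differences had adjusted p = 0.00561 and 0.00703 by limma, and after quantile normalization, which gave -0.40 with CDH2 shRNA, the adjusted p was 0.0440. With a mean-variance trend it was 0.0495 by limma, and without CDH2 3 or scramble 3 the CDH2 value was -0.44 with an adjusted p of 0.00938. No setting took ADM to the fold change required: its values ran from -0.44 to -0.28 with CDH2 shRNA and from -0.48 to -0.34 with Cx43 shRNA when a library was left out.

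EGLN3 (chr14:33924227-34462774, minus strand) encodes the prolyl hydroxylase PHD3, itself a HIF target that feeds back on HIF alpha subunits. It was 4.39, 4.12 and 4.63 with scramble, 3.87, 3.81 and 3.46 with CDH2 shRNA and 3.50 and 3.83 with Cx43 shRNA. All 5 knockdown libraries lay below the lowest scramble library, by 0.26 at the closest. The log2 fold change was -0.67 ± 0.19 (SE) with CDH2 shRNA (limma, adjusted p = 0.0665) and -0.72 ± 0.23 with Cx43 shRNA (limma, adjusted p = 0.156). Without the block the adjusted p was 0.0165 and 0.0308 by limma, and the second of these was past the fold threshold. Single libraries moved the CDH2 value both ways: by limma it was -0.88 with an adjusted p of 0.00291 without scramble 2, and -0.42 with an adjusted p of 0.0299 without CDH2 3 or scramble 3. The gene model of EGLN3 spans that of SPTSSA on the same strand, also measured, and EGLN3-AS1 on the other, and the strand setting of the libraries is not given in the sources used here.

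Across the genome it was common for groups not to overlap, which sets the scale for these genes. Every CDH2 library lay below every scramble library in 24.8% of all genes, and in 4 of the 10 members (ANGPTL4, ADM, NDRG1 and EGLN3). Every Cx43 library lay below in 21.4% of all genes, and in 4 members (ANGPTL4, ADM, EGLN3 and EPAS1). All 5 knockdown libraries lay below scramble in 12.8% of all genes, and in 3 members. Of the 9 members other than ANGPTL4, that leaves 3, 3 and 2. HIF1A was the member above scramble in every CDH2 library, which 27.1% of all genes were.

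NDRG1, BNIP3 and DDIT4 are stress genes that HIF is known to drive. Their log2 fold changes were negative with CDH2 shRNA and near or above 0 with Cx43 shRNA, none past an adjusted p of 0.05. NDRG1 (chr8:133237175-133302022, minus strand), which encodes a cytoplasmic protein of stress and differentiation, was 7.78, 7.51 and 8.02 with scramble, 7.36, 7.27 and 6.94 with CDH2 shRNA and 7.48 and 7.84 with Cx43 shRNA. Its CDH2 libraries lay below scramble and its Cx43 libraries overlapped it. The log2 fold change was -0.58 ± 0.20 (SE) with CDH2 shRNA (limma, adjusted p = 0.0920) and -0.11 ± 0.23 with Cx43 shRNA (limma, adjusted p = 0.807). Without the block the CDH2 value had an adjusted p of 0.0293 by limma, and without scramble 2 it was -0.79 with an adjusted p of 0.00563. Without CDH2 3 or scramble 3 it was -0.33 (limma, adjusted p = 0.0816).

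DDIT4 (chr10:72273919-72276036, plus strand) encodes REDD1, an inhibitor of mTORC1. It was 7.57, 7.0 and 8.09 with scramble, 7.09, 6.95 and 6.22 with CDH2 shRNA and 7.30 and 8.01 with Cx43 shRNA. No gene among the members spread more within groups, and CDH2 1 lay above scramble 2. The range over the scramble libraries, 1.09, was wider than in 99.9% of all genes. The log2 fold change of -0.80 ± 0.39 (SE) with CDH2 shRNA was not past the threshold (limma, adjusted p = 0.187, 95% interval -1.76 to 0.16), and with Cx43 shRNA it was 0.10 ± 0.46 (limma, adjusted p = 0.918). Without scramble 2 the values were -1.25 with an adjusted p of 0.00336 for CDH2 shRNA and -0.45 with one of 0.375 for Cx43 shRNA by limma. Without CDH2 3 or scramble 3 the CDH2 value was -0.27 (limma, adjusted p = 0.331).

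BNIP3 (chr10:131967684-131981967, minus strand) encodes a mitochondrial protein that calls in autophagy. It was 7.0, 6.80 and 7.16 with scramble, 6.90, 6.74 and 6.55 with CDH2 shRNA and 7.03 and 7.39 with Cx43 shRNA. Against the scramble library of the same number, all 3 CDH2 libraries were lower, by -0.10, -0.06 and -0.61, and both Cx43 libraries were higher, by 0.04 and 0.60. Neither mean difference was past the threshold (limma, adjusted p = 0.300 for -0.25 and 0.533 for 0.23). The CDH2 value was -0.08 without CDH2 3 or scramble 3 and -0.41 without scramble 2 (limma, adjusted p = 0.689 and 0.0918).

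VEGFA (chr6:43770184-43786487, plus strand), the main growth factor of blood vessels, was 7.86, 7.68 and 8.04 with scramble, 7.74, 7.91 and 7.56 with CDH2 shRNA and 8.04 and 8.04 with Cx43 shRNA. The groups overlapped, and the log2 fold changes of -0.12 and 0.18 had adjusted p values of 0.543 and 0.565 by limma. Their 95% intervals, -0.47 to 0.22 and -0.22 to 0.58, leave out a fall of the size ANGPTL4 showed. P4HA1 (chr10:73007217-73096974, minus strand), the catalytic subunit of a collagen prolyl hydroxylase, was 6.34, 6.09 and 6.58 with scramble, 6.28, 6.38 and 5.97 with CDH2 shRNA and 6.46 and 6.60 with Cx43 shRNA. It overlapped in the same way, with log2 fold changes of -0.12 (95% interval -0.55 to 0.30) and 0.19 (95% interval -0.31 to 0.69).

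The genes of the HIF alpha subunits showed no fall like that of ANGPTL4. HIF1A (chr14:61695513-61748259, plus strand) was 8.23, 8.09 and 8.39 with scramble, 8.53, 8.70 and 8.39 with CDH2 shRNA and 8.40 and 8.38 with Cx43 shRNA. The lowest CDH2 library and the highest scramble library were equal to 2 decimals. The log2 fold change was 0.31 ± 0.13 (SE) with CDH2 shRNA (limma, adjusted p = 0.135, and 0.0439 without the block) and 0.15 ± 0.15 with Cx43 shRNA (limma, adjusted p = 0.580). The CDH2 value was 0.46 without CDH2 3 or scramble 3 and 0.19 without scramble 2 (limma, adjusted p = 0.0103 and 0.390). EPAS1 (chr2:46293667-46386697, plus strand) was 6.90, 6.74 and 7.08 with scramble, 6.93, 7.16 and 6.78 with CDH2 shRNA and 6.72 and 6.66 with Cx43 shRNA. Its CDH2 libraries overlapped scramble and its Cx43 libraries lay just below. The log2 fold changes were 0.05 ± 0.14 and -0.22 ± 0.17 (SE; limma, adjusted p = 0.814 and 0.501). The antisense genes HIF1A-AS1 and HIF1A-AS3 overlap HIF1A, and their reads cannot be told apart without strand.

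Directly between the knockdowns, no member and no gene of all 12939 (0%) had both an adjusted p under 0.05 and a 1.5-fold difference by limma, although 2591 genes had an unadjusted p under 0.05. DDIT4 differed by -0.90 ± 0.46 (SE; CDH2 minus Cx43, limma adjusted p = 0.329), BNIP3 by -0.48 ± 0.19 (adjusted p = 0.245) and NDRG1 by -0.47 ± 0.23 (adjusted p = 0.317), all lower with CDH2 shRNA. ADM and EGLN3 differed by 0.08 and 0.05, with 95% intervals of -0.19 to 0.34 and -0.51 to 0.60. Without scramble 2, DDIT4 was the 1 member called, at -0.79 with an adjusted p of 0.0462 by limma.

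The members also varied together inside groups. Scramble 3 was above scramble 2 in 8 of the 10 members, where it was above in 49.8% of all genes. The exceptions were ANGPTL4 by -0.12 and ADM by -0.18, and the differences of the others ran from 0.30 in HIF1A to 1.09 in DDIT4. Among 41 measured HIF targets outside the members, scramble 3 was above in 35, with a median difference of 0.38, beside -0.0016 over all genes. Cx43 2 was above Cx43 1 in 6 of the 10 members, in 33 of those 41 targets and in 42.9% of all genes. It was above by 0.71 in DDIT4, 0.36 in NDRG1, 0.36 in BNIP3, 0.33 in EGLN3, 0.14 in P4HA1 and 0.0009 in VEGFA. Both orders held in the same 6 members, in 32 of the 41 targets and in 28.8% of all genes. The 10 immediate-early and heat shock genes listed as signs of handling stress showed both orders in 7, none of them passed in either knockdown by limma, and their part in the members' spread was not tested. The order of the CDH2 libraries adds nothing independent here, since that of CDH2 3 mirrors scramble 3. ANGPTL4 ran the other way in both, lower in scramble 3 and in Cx43 2.

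**Figure D3:**
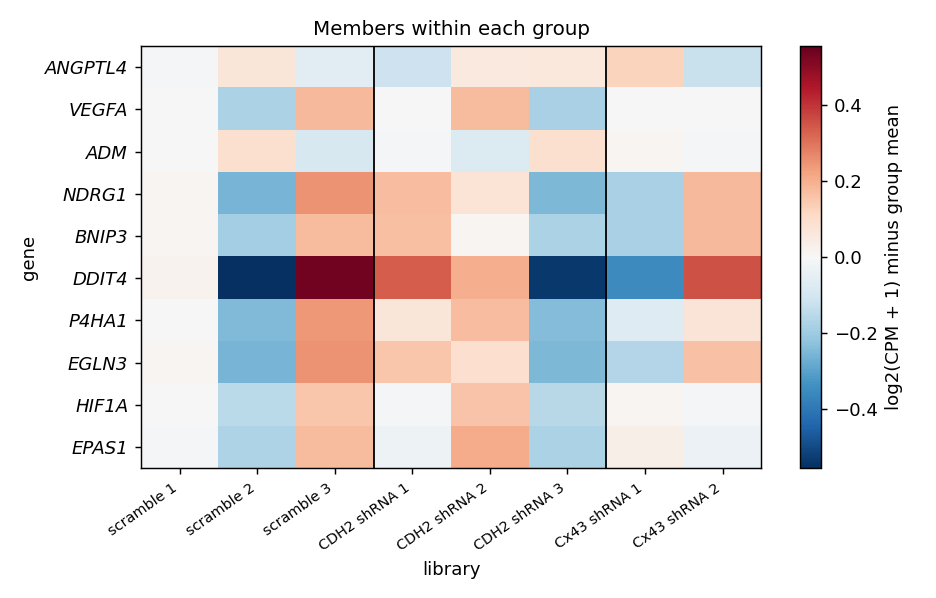
Colors give each member's log2(CPM + 1) minus its group mean (color bar, red above and blue below) for the 8 libraries on the x axis, with black lines between groups. Scramble 3 and Cx43 2 are red for DDIT4, NDRG1, BNIP3, P4HA1 and EGLN3, scramble 2 is blue for the same genes, and ANGPTL4 and ADM show the opposite colors in scramble.

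The genes nearest to ANGPTL4 were looked up among all genes, so that they lie nearer than the members is fixed by the search and is no finding. The distance used also holds the fall against scramble by which ANGPTL4 was chosen. With each gene centered on its scramble mean, the root mean square difference from ANGPTL4 over the 8 libraries was smallest for PTGS1 (0.0634), which encodes cyclooxygenase 1, followed by PLAC8 (0.0697), AC068580.4 (0.104), the keratin gene KRT81 (0.184) and FERMT3 (0.191), which encodes kindlin-3, an activator of integrins. PTGS1 was 3.09, 3.09 and 3.11 with scramble, 1.88, 2.0 and 1.92 with CDH2 shRNA and 1.67 and 1.55 with Cx43 shRNA. It thus matched ANGPTL4 in level as well as in pattern, and like ANGPTL4 it reached the floor of 2.001 with scramble alone. Among the members EGLN3 was nearest at 0.530, with 194 genes nearer than it, then ADM at 0.703 and NDRG1 at 0.795. DDIT4 (0.930), EPAS1 (0.966), BNIP3 (1.02), VEGFA (1.04) and P4HA1 (1.05) followed, and HIF1A was farthest at 1.20. Since ANGPTL4 fell in both knockdowns, its nearest genes are bound to do so, and their fall is no finding.

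**Figure D4:**
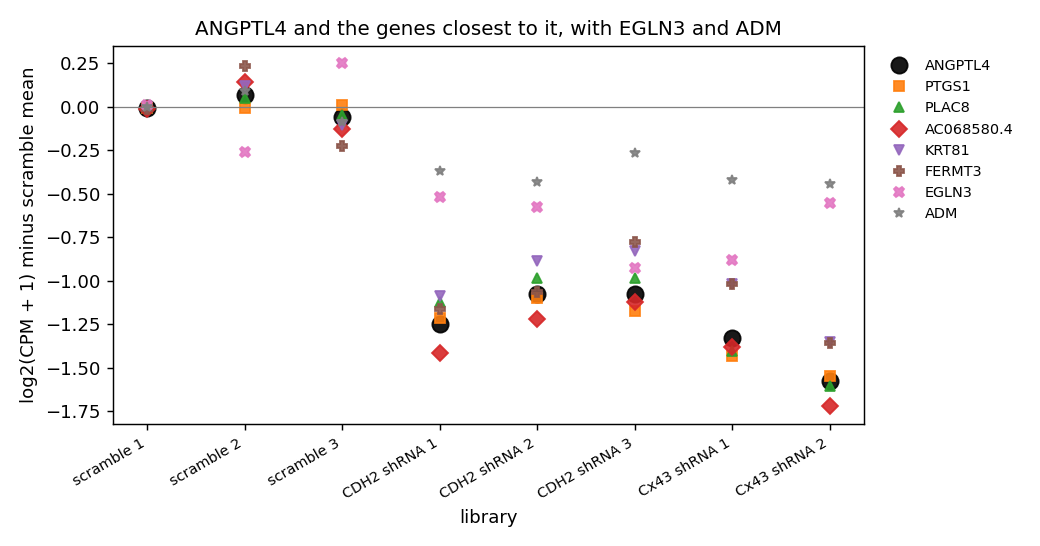
The y axis is log2(CPM + 1) minus the gene's scramble mean and the x axis the 8 libraries; each marker and color is 1 gene. The 5 nearest genes lie with ANGPTL4 between about -0.8 and -1.7 in the knockdown libraries, while EGLN3 lies between -0.52 and -0.92 and ADM between -0.26 and -0.44.

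Levels are given here per kb of the union of all annotated exons of a gene, which can exceed the length of its transcripts. The order between genes depends on these lengths, which ran from 2.118 kb for DDIT4 to 14.43 kb for VEGFA. In CPM alone, the scramble means of HIF1A (301.6), VEGFA (232.5) and NDRG1 (220) were above that of DDIT4 (196). In scramble libraries DDIT4 was highest at 92.5 CPM per kb (range 59.9 to 128), followed by HIF1A at 58.5 (52.6 to 64.8), whose range overlapped it. BNIP3 (31.2), ADM (28.4) and P4HA1 (26) overlapped in range, as did NDRG1 (18.3), EPAS1 (16.4) and VEGFA (16.1). ANGPTL4 (2.92) and EGLN3 (2.73) were the lowest and overlapped each other. In Cx43 libraries the order began in the same way, with DDIT4 at 97.7 and HIF1A at 65.0 CPM per kb. In CDH2 libraries HIF1A at 72.4 CPM per kb stood above DDIT4 at 52.1, and ANGPTL4 at 1.11 was the lowest of the members.

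Around the members, each list is read here beside the share of all genes that passed the same test. With CDH2 shRNA, 1 of 19 measured genes of the HIF subunits and oxygen sensing (members HIF1A, EPAS1 and EGLN3 included) had an adjusted p under 0.05 and was lower, against 6.98% of all genes, and 2 were higher, against 7.29%. ELOB, a part of the VHL ligase, fell by 0.66 on the log2 scale (limma, adjusted p = 0.0308). The HIF coactivators EP300 and CREBBP rose by 0.66 and 0.41 (limma, adjusted p = 0.0417 and 0.0447). The values of ELOB, EP300 and CREBBP with Cx43 shRNA were -0.15, -0.07 and -0.14. With Cx43 shRNA none of the 19 passed in either direction by limma, where 0.788% of all genes were lower and 0.417% higher. Without the block more genes passed everywhere: 20.8% of all genes were lower and 22.5% higher with CDH2 shRNA, and 10.3% and 14.0% with Cx43 shRNA. In that fit 6 of the 19 were lower and 4 higher with CDH2 shRNA, and 3 and 2 with Cx43 shRNA. ARNT, the partner of both alpha subunits, had log2 fold changes of 0.13 and 0.24, VHL 0.02 and 0.29, and EGLN1, the main HIF hydroxylase, 0.07 and 0.26, none past adjusted p under 0.05. All calls with CDH2 shRNA here and below rest on the 8 libraries together: 267 genes were past the threshold in all, 0 without any 1 of CDH2 1, CDH2 2, Cx43 1 or Cx43 2, 10 without scramble 1, and 723 without CDH2 3 or scramble 3. With Cx43 shRNA 153 genes were past it, 0 without CDH2 2, Cx43 1 or Cx43 2, 1 without scramble 1, 5 without CDH2 1, 468 without scramble 2 and 730 without CDH2 3 or scramble 3.

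Of 41 other HIF targets measured, 3 were lower and 2 higher with CDH2 shRNA at adjusted p under 0.05, shares near or below the 6.98% and 7.29% of all genes. None of the 41 passed with Cx43 shRNA by limma, beside 0.788% and 0.417%. The median log2 fold change was -0.08 with CDH2 and 0.10 with Cx43 shRNA, near the 0.01 and 0.04 over all genes. NOL3, an inhibitor of apoptosis, fell by 0.42, the lactate exporter SLC16A3 by 0.35 and the carbonic anhydrase CA12 by 0.31 on the log2 scale with CDH2 shRNA (limma, adjusted p = 0.0370, 0.0499 and 0.0444). TFRC, the transferrin receptor, rose by 0.57 and PFKFB3, which speeds glycolysis, by 0.53 (limma, adjusted p = 0.0248 and 0.0370). With Cx43 shRNA TFRC and PFKFB3 were at 0.44 and 0.54, and NOL3, SLC16A3 and CA12 at 0.02, 0.14 and 0.09. CA9, a gene that responds strongly to HIF-1, was 2.86, 2.43 and 3.20 with scramble, 2.15, 1.56 and 1.3 with CDH2 shRNA and 2.59 and 3.61 with Cx43 shRNA. Its CDH2 libraries lay below scramble, and the log2 fold change of -1.16 ± 0.38 (SE) had an adjusted p of 0.0854 by limma. Without the block 8 of the 41 were lower and 2 higher with CDH2 shRNA, beside 20.8% and 22.5% of all genes, and 2 were lower and 3 higher with Cx43 shRNA, beside 10.3% and 14.0%.

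Glycolytic genes, a large class of HIF-1 targets, had medians of opposite sign in the knockdowns. With CDH2 shRNA 5 of 20 fell and 1 rose at adjusted p under 0.05, beside 6.98% and 7.29% of all genes, with a median log2 fold change of -0.17. ALDOC fell by 1.00 on the log2 scale (limma, adjusted p = 0.0262), while PFKP, PKM, ALDOA and ENO1 fell by between 0.31 and 0.36. HK2, the first enzyme of the path, rose by 0.69 (limma, adjusted p = 0.0223). With Cx43 shRNA none of the 20 passed by limma, 17 had a positive value, and the median was 0.20. Without the block 8 were lower and 1 higher with CDH2 shRNA, beside 20.8% and 22.5% of all genes, and 0 were lower and 8 higher with Cx43 shRNA, beside 10.3% and 14.0%. The direct test found no gene of the 20 past its threshold.

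Genes of collagen modification, the class of P4HA1, were lower with CDH2 shRNA in 3 of 11 and higher in none at adjusted p under 0.05 by limma, beside 6.98% and 7.29% of all genes, with a median of -0.22. None of the 11 passed with Cx43 shRNA by limma. Without the block 5 were lower with CDH2 and 3 with Cx43 shRNA, beside 20.8% and 10.3% of all genes. LOXL4, which crosslinks matrix, was 4.92, 4.64 and 5.19 with scramble, 3.84, 3.91 and 3.46 with CDH2 shRNA and 3.39 and 3.60 with Cx43 shRNA. The knockdown libraries stood apart from scramble, with log2 fold changes of -1.18 and -1.43 (limma, adjusted p = 0.0253 and 0.0541). P4HA2, the paralog of P4HA1, fell by 0.52 and LOXL1 by 0.39 with CDH2 shRNA (limma, adjusted p = 0.0257 and 0.0343). With Cx43 shRNA they were at -0.35 and 0.10.

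**Figure D5:**
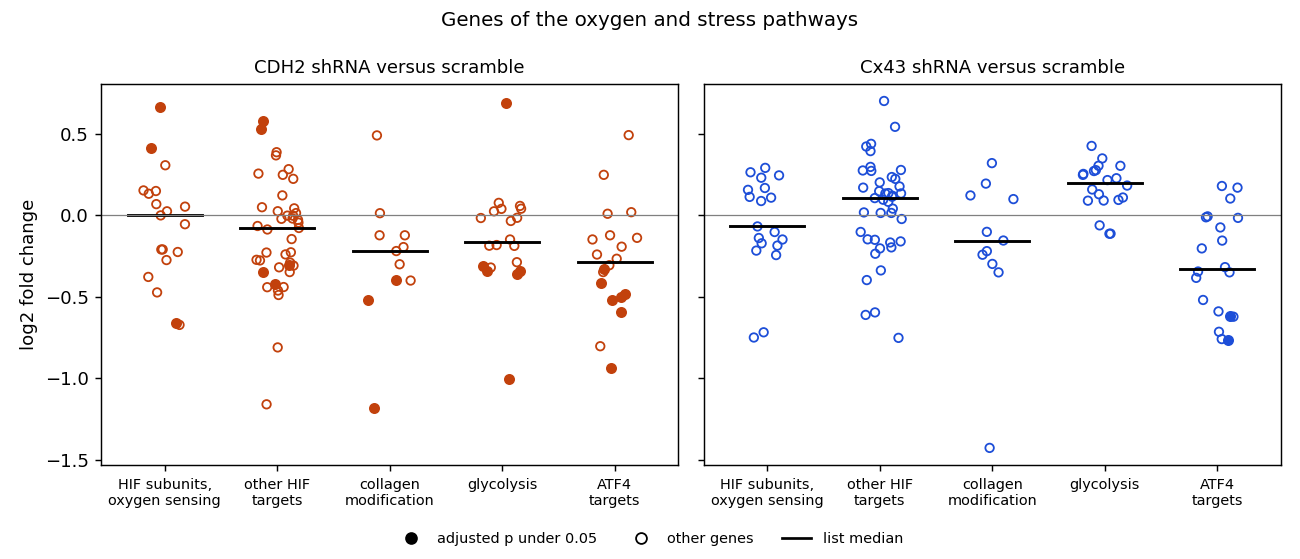
Each point is the log2 fold change of 1 gene against scramble, in columns for 5 lists, with CDH2 shRNA at left and Cx43 shRNA at right; filled points have adjusted p under 0.05 and black bars are list medians. Members on a list are plotted with it. The glycolysis median lies at -0.17 at left and 0.20 at right, and the ATF4 median at -0.29 and -0.33.

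Among the partners of the secreted members, of 10 measured angiogenic ligands and receptors (VEGFA included) 2 fell with CDH2 shRNA, beside 6.98% of all genes. None of the 10 passed with Cx43 shRNA by limma, where 0.788% of all genes were lower and 0.417% higher. Without the block 3 were lower and 3 higher with CDH2 shRNA, beside 20.8% and 22.5% of all genes. In that fit 2 were lower and 1 higher with Cx43 shRNA, beside 10.3% and 14.0%. PGF, placental growth factor, was 4.91, 5.11 and 4.72 with scramble, 4.04, 3.92 and 4.28 with CDH2 shRNA and 4.22 and 4.13 with Cx43 shRNA. It fell by 0.83 on the log2 scale with CDH2 shRNA (limma, adjusted p = 0.0284) and had a value of -0.74 with Cx43 shRNA (limma, adjusted p = 0.102). VEGFB fell by 0.42 with CDH2 shRNA (limma, adjusted p = 0.0491) and was at -0.008 with Cx43 shRNA. The VEGF receptors FLT1, KDR and FLT4 were not among the genes, and the coreceptor NRP1 had values of 0.07 and -0.22. None of the 4 measured genes of adrenomedullin and its receptors passed by limma in either knockdown, RAMP1 was at -0.25 and 0.42, and the receptor CALCRL was not among the genes. Of the angiopoietin-like family ANGPTL4 alone was among the genes. LPL, the enzyme it inhibits, was not among them either, and PCSK6, a protease of the family that cuts ANGPTL4, rose by 0.54 with CDH2 shRNA (limma, adjusted p = 0.0339). PCSK6 was at 0.60 with Cx43 shRNA (limma, adjusted p = 0.0854).

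The other regulators of ANGPTL4 were read through their targets. ANGPTL4 itself is left out of the counts, since it was chosen for its fall. Of 21 other PPAR targets measured, 1 was lower with CDH2 shRNA at adjusted p under 0.05 and none with Cx43 shRNA by limma, beside 6.98% and 0.788% of all genes. It was CPT1B, which carries fatty acids into mitochondria, at -0.51 with CDH2 shRNA (limma, adjusted p = 0.0373). Every listed gene reached at least 2.001 in some library, and CPT1B did so in scramble 2 alone, at 2.04. It was thus listed only through the group where it was high, which favors a call as lower. With Cx43 shRNA CPT1B was at -0.70 (limma, adjusted p = 0.0669). Without the block 7 of the 21 were lower with CDH2 shRNA and 4 with Cx43 shRNA, beside 20.8% and 10.3% of all genes. Of 20 other TGF-beta targets 4 were lower with CDH2 shRNA and 1, ID2, with Cx43 shRNA, beside 6.98% and 0.788% of all genes with the block. Without the block 4 were lower with CDH2 shRNA and 2 with Cx43 shRNA, near the 20.8% and 10.3% of all genes. In that fit 2 were higher in each, beside 22.5% and 14.0%. ID2, an inhibitor of differentiation factors, was 3.10, 3.28 and 2.95 with scramble, 2.20, 2.29 and 2.49 with CDH2 shRNA and 2.0 and 1.73 with Cx43 shRNA. Its log2 fold changes were -0.78 and -1.245 (limma, adjusted p = 0.0297 and 0.0384). TGFB1 fell by 0.61, SMAD6 by 0.51 and PMEPA1 by 0.46 with CDH2 shRNA (limma, adjusted p = 0.0327, 0.0419 and 0.0356). Their values with Cx43 shRNA were -0.14, -0.02 and -0.04. The median over the 20 was -0.0039 with CDH2 and 0.02 with Cx43 shRNA. Of 13 other glucocorticoid targets 1 was lower and 1 higher with CDH2 shRNA, beside 6.98% and 7.29% of all genes, and 1 was lower with Cx43 shRNA. Without the block 3 were lower and 1 higher with CDH2 shRNA, beside 20.8% and 22.5% of all genes. In that fit 2 were lower and 2 higher with Cx43 shRNA, beside 10.3% and 14.0%. TSC22D3 fell by 0.68 and FKBP5 rose by 0.36 with CDH2 shRNA (limma, adjusted p = 0.0412 and 0.0368), both of which glucocorticoids are known to induce. With Cx43 shRNA they were at -0.62 and 0.31, neither past adjusted p under 0.05. PER1, a clock gene, fell by 0.77 with Cx43 shRNA (limma, adjusted p = 0.0445) and was at -0.04 with CDH2 shRNA.

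The targets of ATF4 include the members DDIT4 and VEGFA. Of 20 measured, 7 fell with CDH2 shRNA and 2 with Cx43 shRNA at adjusted p under 0.05, beside 6.98% and 0.788% of all genes, and none rose by limma. The median log2 fold change was -0.29 and -0.33, and 16 and 17 of the 20 had a negative value. DDIT3, the stress factor CHOP, was 4.65, 4.67 and 4.64 with scramble, 4.06, 4.04 and 4.08 with CDH2 shRNA and 4.04 and 4.03 with Cx43 shRNA. It fell by 0.59 and by 0.62 on the log2 scale (limma, adjusted p = 0.0198 and 0.0384). ASNS, asparagine synthetase, fell by 0.33 and 0.77 (limma, adjusted p = 0.0448 and 0.0354). CHAC1 fell by 0.94 with CDH2 shRNA, and SESN2, PHGDH and ATF4 itself by 0.52, 0.50 and 0.48. With Cx43 shRNA they were at -0.76, -0.71, -0.59 and -0.35, none past adjusted p under 0.05. Without the block 9 and 10 of the 20 were lower, beside 20.8% and 10.3% of all genes. The members DDIT4 and VEGFA, and STC2, were the exceptions in sign with Cx43 shRNA, at 0.10, 0.18 and 0.17.

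For the partners of DDIT4 and BNIP3 in mTORC1 and mitophagy, 3 of 17 fell with CDH2 shRNA, beside 6.98% of all genes, and none passed with Cx43 shRNA by limma. Without the block 7 were lower and 1 higher with CDH2 shRNA and 6 lower with Cx43 shRNA, beside 20.8%, 22.5% and 10.3% of all genes. PINK1, a kinase that marks damaged mitochondria, fell by 0.59 on the log2 scale with CDH2 shRNA. GABARAP and GABARAPL1, adaptors of autophagy, fell by 0.58 and 0.72 (limma, adjusted p = 0.0249, 0.0202 and 0.0491 for the 3). Their values with Cx43 shRNA were -0.32, -0.18 and -0.46. The paralog BNIP3L had values of -0.44 and 0.08, neither past adjusted p under 0.05. Of the NDRG family NDRG4 fell by 0.76 with CDH2 shRNA (limma, adjusted p = 0.0451) and was at -0.11 with Cx43 shRNA. NDRG3 was at 0.01 and 0.02.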

How the data were processed

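RNA-Seq was measured in 8 libraries. The authors aligned reads to hg38 with STAR (version 2.6.1 in the submitters' processing notes), quantified genes by expectation maximization, removed a low-quality sample, removed the effect of sequencing runs and dropped low genes, and the deposited values are log2(CPM + 1). Each library lists 12939 genes, 18 under date-like names, and 1 unnamed row, which was left out; CPM sum to between 684411 and 727083. Genes were fitted with limma 3.58.1 in R 4.3.3 (lmFit, eBayes) on all 8 libraries with group and replicate number. This leaves 3 residual degrees of freedom, and 2.84 were added from other genes. The residuals vary in 2 of the 3 directions, so p-values with the block may also be too small. P-values are two-sided, adjusted by Benjamini-Hochberg over 12939 genes, and the fold thresholds are those of the methods for each knockdown. The fit was also run on simulated data with independent normal noise in each gene. Since the deposited residuals vary in fewer directions, that run cannot show whether the p-values hold for them. The replicate number comes from the labels and was fitted since the methods removed a run effect. The deviations within a number sum to 0, so whether samples of a number deviate together could not be checked. The 10 members and the gene lists were chosen with earlier results of these data known. Named genes are the members, up to 6 genes a list with adjusted p under 0.05 in either knockdown, the 5 nearest to ANGPTL4, and defining parts of the members' pathways; CA9, BNIP3L and NDRG3 were chosen after their values were seen. Positions are from GENCODE 44 on hg38, and exon lengths are unions of exons. Alternatives were no block, quantile normalization, median centring, the highest 75% of genes, a pseudocount of 0.1, a mean-variance trend, the compared groups alone, other folds, and leaving out each library; the compared groups without the block, list counts under every setting, and list counts without ANGPTL4, were added after the data were seen.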

Additional observations from a re-analysis of the deposited data

Results flagged for a closer look

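For 9 named genes, the same-numbered differences from scramble had one sign in all 3 CDH2 libraries and the other in both Cx43 libraries. The difference between the knockdowns was tested directly with limma and in none was it past an adjusted p of 0.05. BNIP3, a member, differed by -0.48 (CDH2 minus Cx43, adjusted p = 0.245). The HIF targets SLC16A3 and CA12 differed by -0.48 and -0.40 (adjusted p = 0.126 for both), LOXL1 by -0.49 and the glycolytic genes PKM, ALDOA and ENO1 by -0.43, -0.43 and -0.44 (adjusted p between 0.124 and 0.125). CREBBP differed by 0.55 and EPCAM, a marker of epithelial cells, by -0.48 (adjusted p = 0.124 for both).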

How the results depend on the processing

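The number of genes past the threshold, and with it that of members, depended on the settings. For CDH2 shRNA versus scramble, 267 genes became 150 with the 75% of genes of highest mean, 0 with the compared groups alone, 1846 without a fold change and 66 at a fold of 2, and 0 to 723 when a library was left out. The 1 member, ANGPTL4, became 0 with the first of these, which removes it, and with the second, and 0 to 4 without a library. For Cx43 shRNA, 153 genes became 532 without the replicate block, 4 with the 75%, 741 with the compared groups alone, 536 with these and no block, 59 at a fold of 2 and 0 to 730 without a library. The 1 member became 2 with no replicate block, with the compared groups alone and with both, 0 with the 75%, and 0 to 2 without a library. Between the knockdowns 0 genes became 360 without the block, 414 with the compared groups alone, 313 with both and 0 to 545 without a library, and 0 members became 0 to 1. The fall of ANGPTL4 kept its direction in every setting in which it was tested. It ran from -1.19 to -1.04 for CDH2 and from -1.64 to -1.27 for Cx43 when a library was left out. With a pseudocount of 0.1 it was -1.36 and -1.80, so the offset of 1 in the deposited values shrinks the change of this weakly expressed gene. ADM, at a higher level, was at -0.36 and -0.44 in that setting, close to its main values.

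Signs turned in the small differences of 8 members. Leaving out a library took VEGFA to between -0.26 and 0.0555, P4HA1 to between -0.32 and 0.12 and EPAS1 to between -0.11 and 0.23 with CDH2 shRNA. With Cx43 shRNA it took NDRG1 to between -0.39 and 0.16, BNIP3 to between -0.0414 and 0.50, DDIT4 to between -0.45 and 0.64 and P4HA1 to between -0.0499 and 0.31. Between the knockdowns it took EGLN3 to between -0.20 and 0.29 and HIF1A to between -0.0085 and 0.23. NDRG1 was at 0.0114 with Cx43 shRNA in the compared groups alone. Leaving out scramble 3 or CDH2 3 gives the same result by construction, since each is the other's only partner in its number. Where a library left out leaves a lone sample in an arm, that sample is assumed to vary like the other groups. The cause of the other shifts was not tested. With no counts, depth sets no limit that can be stated here.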
